A study of Mus musculus with 12 samples.

Results

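H2AK119ub, histone H2A carrying ubiquitin on a lysine near its end, was listed at 37909 peaks whose summit lay deep inside a gene and outside its exons. These distal intronic peaks were chosen by position. The summit had to fall in the body of a GENCODE vM39 protein-coding gene, outside every exon of protein-coding genes, and more than 2 kb from every canonical protein-coding transcription start site (TSS). They were 27.4% of the 138153 H2AK119ub peaks on chromosomes 1 to 19, X and Y in 8 CUT&RUN libraries. The whole series held 159554 peaks in 12 libraries, 4 of which were ChIP-seq libraries for BAP1 or ASXL1. The study asked how truncated ASXL1, and changes to its condensation, alter where BAP1, ASXL1 and H2AK119ub are found on chromatin.

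The cells were c-Kit+ cells purified from mouse bone marrow, labelled as hematopoietic stem and progenitor cells (HSPCs) with the genotype "mock". They were stimulated overnight and then given retroviruses. All 8 groups received a BAP1 virus, controls included. In the 1-590 set it was combined with ASXL1 residues 1 to 590, with the same fragment carrying 10RA (condensation-impaired per the labels), with the fragment carrying 25RA (condensation-defective per the labels), or with empty vector. The 1-1067 set combined it with ASXL1 residues 1 to 1067, with its charge-neutralized forms 34DN or 36EQ, or with a vector of its own. Each condition had 1 library, and each set was a batch of its own per the labels, so libraries were compared within a set. The age, sex and number of mice and the promoter of the viruses are not given in the sources used here. Peak lists hold no expression values, so the labelled cell type was not checked against its markers. In the lists titled 25RA, 34DN and 36EQ the individual peak names use codes that differ from the title, and the titles were followed. For the ChIP libraries the labels name antibodies to BAP1 or ASXL1 in descriptions and to HA in the protocol, and titles were followed.

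H2AK119ub is laid down by Polycomb repressive complex 1 (PRC1) and is best known at CpG-rich promoters of silenced developmental genes, although a thin layer of it covers much of the genome. BAP1 is the enzyme that removes it, and ASXL1 is the partner that activates BAP1. Introns far from a TSS hold many enhancers of blood genes and many unannotated or alternative promoters, so marks there can belong to regulatory elements other than the main promoter of the host gene.

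The range of sequence under these peaks is shown by 8 windows reaching 50 bases to each side of a summit, all from the GRCm39 plus strand, with each CpG dinucleotide in capitals. The first 4 belong to regions listed in all 4 libraries of the 1-590 set. They are Adk at chr14:21126107-21126207, Gm42906 at chr5:151292039-151292139, Itpkb at chr1:180215129-180215229 and Chd2 at chr7:73187616-73187716. Mrps27 at chr13:99489780-99489880 was the strongest 1-copy peak of 1-590 with no vector peak within 1 kb, and Atf7ip at chr6:136508927-136509027 was the strongest vector peak with no 1-590 peak. Of the 1-1067 set, Ets1 at chr9:32623995-32624095 was listed with 1-1067 and not with vector, and Rad18 at chr6:112638762-112638862 with vector and not with 1-1067.
Adk: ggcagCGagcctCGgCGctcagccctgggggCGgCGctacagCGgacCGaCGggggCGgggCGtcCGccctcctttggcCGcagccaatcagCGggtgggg
Gm42906: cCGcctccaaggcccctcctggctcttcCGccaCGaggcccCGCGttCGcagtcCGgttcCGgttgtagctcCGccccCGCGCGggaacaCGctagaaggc
Itpkb: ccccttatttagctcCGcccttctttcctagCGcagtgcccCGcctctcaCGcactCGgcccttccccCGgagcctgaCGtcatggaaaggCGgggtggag
Chd2: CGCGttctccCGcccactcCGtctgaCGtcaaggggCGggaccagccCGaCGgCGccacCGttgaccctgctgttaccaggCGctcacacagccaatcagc
Mrps27: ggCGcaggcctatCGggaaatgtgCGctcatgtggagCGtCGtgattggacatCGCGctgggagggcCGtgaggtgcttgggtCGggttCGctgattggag
Atf7ip: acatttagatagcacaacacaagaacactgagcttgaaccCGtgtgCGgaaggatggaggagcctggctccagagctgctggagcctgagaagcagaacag
Ets1: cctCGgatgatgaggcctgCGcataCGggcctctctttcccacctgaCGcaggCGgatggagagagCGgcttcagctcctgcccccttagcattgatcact
Rad18: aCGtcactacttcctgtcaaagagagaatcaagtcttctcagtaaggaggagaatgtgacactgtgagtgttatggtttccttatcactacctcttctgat
The 4 recurrent windows held 13, 13, 8 and 11 CpGs, and the Mrps27 window held 10. The Ets1 window held 6, the Atf7ip window 2 and the Rad18 window 1. GC content was 78.2% under Adk and 41.6% under Rad18.

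Lists of the 1-590 set were several times longer than those of the 1-1067 set. Distal intronic peaks numbered 8340 with 1-590, 7543 with 10RA, 9459 with 25RA and 4781 with vector. The other set had 2081 with 1-1067, 1714 with 34DN, 2013 with 36EQ and 1978 with vector. Depth was read from the lowest background under any peak, in fragments per base, and was 2.06 with 1-590, 1.72 with 10RA, 1.86 with 25RA and 0.908 with vector. Depth was 2.17 with 1-1067, 2.59 with 34DN, 2.84 with 36EQ and 2.92 with vector. The vector library of the 1-590 set was thus the shallowest of its set, and the 1-1067 library the shallowest of the other. The authors' lists reach p of 0.001 with no limit on q. A q of 0.05 or less was met by 94.2% of distal intronic peaks with 1-590, 88.0% with 10RA, 92.3% with 25RA and 79.9% with vector. The same q was met by 27.1%, 20.5% and 23.2% with 1-1067, 34DN and 36EQ of the 1-1067 set, and by 17.5% with its vector, so most members there had a q above 0.05.

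Among all listed peaks, distal introns held fewer than their share of the genome in the 1-590 set and their share or slightly less in the 1-1067 set. At q of 0.05 or less both sets were below it. The shares then were 25.2%, 25.8%, 27.4% and 22.1% with 1-590, 10RA, 25RA and vector. In the 1-1067 set they were 28.1%, 24.2%, 23.5% and 26.5% with 1-1067, 34DN, 36EQ and vector. Such introns make up 34.4% of the assembled bases, 911.5 of 2649.9 Mb. Of all peaks, 25.7% were distal intronic with 1-590 (Wilson 95% interval 25.2% to 26.1%), 26.7% with 10RA (26.2% to 27.2%), 27.9% with 25RA (27.5% to 28.4%) and 23.8% with vector (23.2% to 24.4%). Shares of the 1-1067 set were 33% with 1-1067 (31.8% to 34.1%), 32.3% with 34DN (31.1% to 33.6%), 33.1% with 36EQ (31.9% to 34.3%) and 34.4% with vector (33.2% to 35.7%). All intervals cover counting error only, because 1 library per condition gives no spread between replicates. Per megabase, 1-590 had 9.15 peaks in distal introns, against 152 within 2 kb of a TSS, 22.0 in exons away from a TSS and 6.08 outside genes. Introns were thus denser in peaks than the space outside genes in that library and far sparser than promoters.

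**Figure D1:**
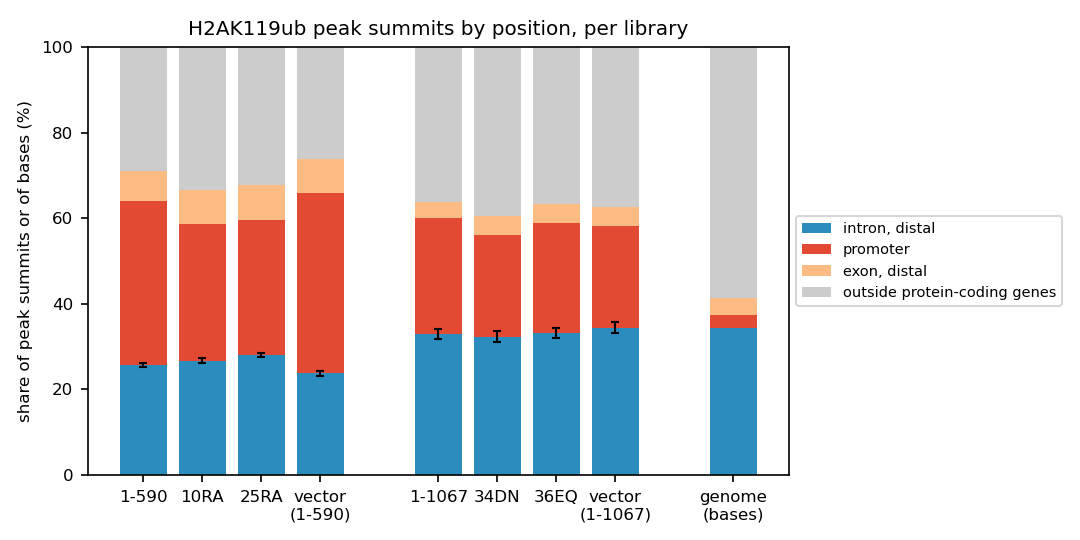
Stacked bars give, for each of the 8 H2AK119ub libraries, the percent of peak summits in distal introns, near promoters, in distal exons and outside protein-coding genes, and the last bar gives the percent of genome bases in each class. Error bars on the blue part are Wilson 95% intervals of the distal intronic share for counting error, and that share lies between 23.8% and 27.9% in the 1-590 set and between 32.3% and 34.4% in the 1-1067 set, against 34.4% of the genome.

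Every construct of the 1-590 set had a higher distal intronic share than its vector. The difference was 1.91 percentage points for 1-590 (Newcombe 95% interval 1.15 to 2.66), 2.96 for 10RA (2.18 to 3.74) and 4.18 for 25RA (3.42 to 4.93). These 3 differences share 1 vector library. Relative to 1-590, the share was 1.06 points higher with 10RA (0.355 to 1.76) and 2.27 points higher with 25RA (1.59 to 2.94). At q of 0.05 or less these were 0.618 points for 10RA (-0.101 to 1.34), an interval that includes 0, and 2.20 points for 25RA (1.51 to 2.89). The depth gap moved with the difference from vector. When pileups of the listed peaks were thinned to match the lowest background of the vector, the share became 22.1% with 1-590, 24.6% with 10RA and 25.3% with 25RA, against 23.8% with vector. The difference from vector then was -1.65 points for 1-590, of the other sign, 0.805 for 10RA and 1.53 for 25RA. With equally long lists it was -3.65 for 1-590, 0.273 for 10RA and -0.457 for 25RA. The order of 10RA and 25RA above 1-590 held under both, at 2.45 and 3.17 points after thinning and 3.93 and 3.20 points with equal lists.

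In the 1-1067 set the constructs lay below their vector by amounts close to counting error. The difference was -1.47 points for 1-1067 (-3.16 to 0.221), -2.15 for 34DN (-3.91 to -0.391) and -1.36 for 36EQ (-3.07 to 0.344), again against 1 shared vector. Among all listed peaks, the difference from 1-1067 was -0.682 points for 34DN (-2.39 to 1.03) and 0.107 points for 36EQ (-1.55 to 1.76), and both intervals include 0. At q of 0.05 or less the difference of 1-1067 from vector was 1.54 points, and its interval of -1.58 to 4.61 also includes 0. At that q the difference from 1-1067 was -3.91 points for 34DN (-6.83 to -0.936) and -4.60 points for 36EQ (-7.30 to -1.89), and neither interval includes 0. Both are set against 1 shared library. With equally long lists the difference was 0.339 points for 34DN (-1.44 to 2.12) and -0.339 points for 36EQ (-2.11 to 1.43). Both of these intervals include 0. More marked cells and more mark per cell cannot be told apart in such bulk libraries.

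Thinning also gave the number of listed distal intronic peaks expected to stay at a matched lowest background. An expected 4629 stayed with 1-590, 4565 with 10RA and 5399 with 25RA, against 4781 with vector. So 1-590 and 10RA, which listed more than vector, had slightly fewer after thinning, and 25RA had more. Distal intronic peaks were lost more easily than promoter peaks. Of the 3 construct lists, 55.5% to 60.5% of distal intronic and 73.8% to 77.7% of promoter peaks stayed. Of the 1-1067 set, 2081 were expected with 1-1067, 1416 with 34DN and 1475 with 36EQ, against 1403 with vector.

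Compared with promoter peaks of the same library, distal intronic peaks were narrower, weaker, much poorer in CpG and less often listed again. Over the 8 libraries their median width averaged 278 bases, against 355 bases for promoter peaks (difference -77.6 ± 54.3, SD, n = 8). The ratio of observed to expected CpG within 100 bases of the summit was 0.182 for distal intronic peaks and 0.699 for promoter peaks (difference -0.517 ± 0.0583, SD, n = 8). GC content was 49.3% in distal introns, against 60.4% at promoters. A q of 0.05 or less was met by 55.3% of distal intronic and 71.4% of promoter peaks, as means of the 8 library shares. All values compared here are such means over libraries, each library counting equally. Pooled over libraries, 28775 of 37909 members met that q. Another library of the same set listed a peak at the site for 24.4% of distal intronic and 67.2% of promoter peaks. An overlap counts in both of its libraries, so these values depend on each other within a set, which the test below does not allow for. Sequence with more than 1 genome copy lay under 2.15% of distal intronic peaks, against 0.963% of promoter peaks. All 6 differences had the same direction in 8 of 8 libraries, with p = 0.00781 by an exact two-sided sign-flip permutation test, the smallest that 8 libraries allow, and p = 0.0113 after Benjamini-Hochberg adjustment over the 13 tests.

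Peaks outside genes were far more like them, with values again given as means over the 8 libraries. Multi-copy sequence lay under 2.15% of distal intronic peaks, against 5.43% of peaks outside genes. Another library listed 24.4% of distal intronic peaks, against 26.7% of those outside genes. Another annotated transcript start lay within 500 bases of 8.32% of distal intronic peaks, against 13.3% of those outside. Each of these was lower in 8 of 8 libraries (exact sign-flip permutation test, adjusted p = 0.0113). Pooled over libraries, 9.03% of members lay near another start. For nearby starts the class rule itself lowered the intronic share. Summits in exons of protein-coding genes, alternative first exons included, form a class of their own, while exons of lncRNA genes stayed in the class outside genes. Of distal exon peaks, 19.7% with 34DN to 33.7% with 1-590 lay near another start. Width was 278 bases in introns and 281 bases outside genes, lower in 7 libraries and equal in the other (adjusted p = 0.0203, same exact test). GC content was 0.715 points higher in introns, in 6 of 8 libraries, with adjusted p = 0.0369 by that exact test, a call lost under several alternatives. The CpG ratio differed by 0.00749 with adjusted p = 0.0508, and the share at q of 0.05 or less by -0.787 points with adjusted p = 0.0547, by the same exact permutation test, so neither passed 0.05.

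The choice of 2 kb made no sharp edge. The 1054 members 2.0 to 2.5 kb from a TSS had a median fold over local background of 2.92, a CpG ratio of 0.221 and q of 0.05 or less in 78.7%. The 1310 intronic peaks left out at 1.5 to 2.0 kb had 2.93, 0.244 and 79.6%. The fold is the authors' own value for each peak.

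Sequence at the summit differed from its own flanks in the 1-590 set. GC content was 52.7% to 53.2% at summits of the 4 libraries, against 45.8% to 46.3% at 1 kb on each side. CpG-rich windows, with GC of 50% or more and a CpG ratio of 0.6 or more, made up 3.47% to 4.70% of summits, against 1.60% to 2.21% of flanks. The 1-1067 set was mixed. GC content at summits was 47.3% with 1-1067, 43.8% with 34DN, 44.8% with 36EQ and 46.3% with vector, against 45.8%, 45.8%, 45.3% and 44.8% in their flanks. CpG-rich windows there were 0.961%, 0.758%, 0.695% and 1.21% of summits, against 1.56%, 1.55%, 1.17% and 1.09% of flanks. Summits were thus above their flanks in GC with 1-1067 and vector, and in CpG-rich windows with vector alone. Among members with q of 0.05 or less and 1-copy sequence, CpG-rich windows were 1.27%, 2.07%, 1.53% and 2.08% of summits, against 1.99%, 1.78%, 1.53% and 1.49% of flanks, so 34DN was above its flanks too. The lower share at q of 0.05 or less in that set moved with the difference between the sets, and its part in it was not tested.

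Within distal introns, peaks lay closer to the start of genes than intronic sequence does. The median distance to the nearest TSS was 26.9 kb. The stretch of 2 to 5 kb held 9.87% of members and 5.88% of distal intronic bases, a ratio of 1.68 that ran from 1.51 to 2.09 over libraries. The ratio was 1.40 both at 5 to 10 kb and at 10 to 25 kb, 1.19 at 25 to 50 kb and 0.969 at 50 to 100 kb. Beyond 100 kb lay 13.3% of members and 31.1% of bases, a ratio of 0.428. The first intron of the canonical transcript held 27.5% of members and 22.1% of bases, a ratio of 1.25. Among members with q of 0.05 or less and 1-copy sequence, 28245 in all, the ratios were 1.70 at 2 to 5 kb and 0.409 beyond 100 kb.

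**Figure D2:**
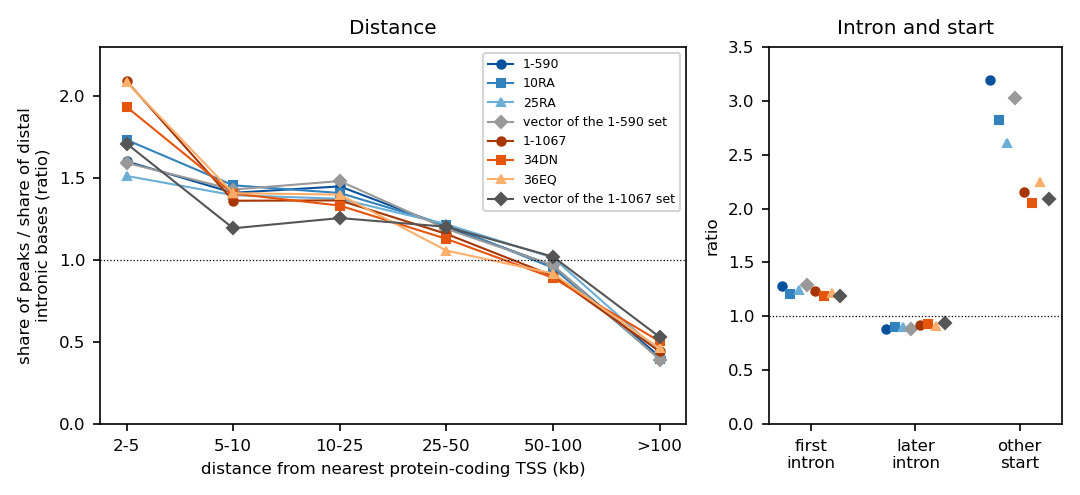
Both panels plot the share of distal intronic peaks divided by the share of distal intronic bases for the 8 libraries, with a dotted line at 1 for equal density; the left panel runs over distance from the nearest TSS in kb, and the right panel shows the first intron, later introns and the 500 bases around another transcript start. Over all members the ratio is 1.68 at 2 to 5 kb, 0.428 beyond 100 kb, 1.25 in the first intron and 2.74 at another start.

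Some members sat at starts of transcripts other than the canonical one. A start of another annotated transcript lay within 500 bases of 9.03% of members and of 3.3% of distal intronic bases, a ratio of 2.74. These starts belonged to coding genes for 5.06% of members, to long non-coding RNA (lncRNA) genes for 3.02%, and to other gene types for 0.950%. The ratio was 3.19 with 1-590, 2.83 with 10RA, 2.61 with 25RA and 3.03 with vector. In the 1-1067 set it was 2.16 with 1-1067, 2.05 with 34DN, 2.24 with 36EQ and 2.08 with vector. Among members with q of 0.05 or less and 1-copy sequence the ratio was 3.24, 2.99, 2.68 and 3.23 with 1-590, 10RA, 25RA and their vector, and 2.36, 3.59, 3.31 and 3.61 with 1-1067, 34DN, 36EQ and their vector, so the ranges of the sets overlapped.

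Most regions were listed in 1 library only. Members of the 1-590 set merged into 23566 regions, of which 18488 (78.5%) were met by a peak of 1 library, 3310 (14%) of 2, 1141 (4.84%) of 3 and 627 (2.66%) of all 4. The 1-1067 set gave 7394 regions, of which 7049 (95.3%) were in 1 library, 277 (3.75%) in 2, 49 (0.663%) in 3 and 19 (0.257%) in all 4. Recurrent regions of the 1-590 set had more of the traits of promoters. A transcript start lay within 500 bases of 6.47% of regions in 1 library, 12% in 2, 18.1% in 3 and 29.0% in 4. CpG-rich windows made up 1.75%, 4.32%, 10.1% and 22.2% of these groups, in the same order. Median width was 256 bases for regions of 1 library and 427 bases for regions of 4, and median distance to the TSS was 29.6 kb and 18.5 kb. Since recurrence counts the listing itself, strength grew with it too: the median summit pileup was 7.53 times the genome background in 1 library and 15.4 times in 4.

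**Figure D3:**
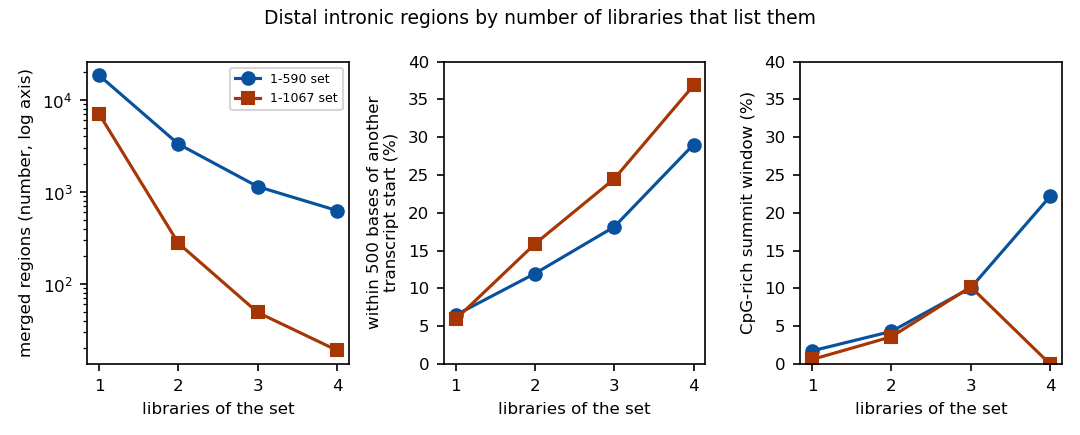
The 3 panels plot the number of merged distal intronic regions (log axis), the percent within 500 bases of another transcript start and the percent with a CpG-rich summit window, against the number of libraries of the set that list the region. In the 1-590 set (blue circles) the share near a start is 6.47% for regions in 1 library and 29.0% for regions in 4, and the CpG-rich share is 1.75% and 22.2%, while none of the 19 regions in all 4 libraries of the 1-1067 set (brown squares) is CpG-rich.

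The 1-1067 set showed the rise in nearby starts as well, at 5.90% of regions in 1 library, 15.9% in 2, 24.5% in 3 and 36.8% in 4. Its 19 regions in all 4 libraries held no CpG-rich window, and 21.1% of them lay on multi-copy sequence. Regions of the 1-590 set were met by a peak of the other set for 3.40% of those in 1 library, 9.79% in 2, 17.4% in 3 and 28.4% in 4. Regions of the 1-1067 set were met by a peak of the 1-590 set for 16% of those in 1 library, 61.7% in 2, 73.5% in 3 and 89.5% in 4. A region listed repeatedly in one batch was thus also more often listed in the other.

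Overlap between conditions was low in introns. A vector peak met 16.5% of the distal intronic peaks of 1-590, against 56.9% of its promoter peaks and 17.6% of those outside genes. In reverse, a 1-590 peak met 29.0% of the vector's distal intronic peaks, 85.0% of its promoter peaks and 31.5% of those outside genes. The vector list met 13.8% of members of 10RA and 13.8% of 25RA, and in reverse 22.0% and 27.8% of vector members were met. A peak of 1-590 met 23.3% of members of 10RA and 22.6% of 25RA, and in reverse these lists met 21.2% and 25.9% of 1-590 members. Among 1-590 members sorted into 4 equal groups by fold, a vector peak met 11.9%, 12.9% and 13.1% of the lower 3 and 28.1% of the strongest. Within the 1-1067 set the vector list met 3.89% of members of 1-1067, 3.73% of 34DN and 3.68% of 36EQ, and a 1-1067 peak met 5.02% of 34DN and 5.27% of 36EQ members. Promoter peaks of 1-1067 were met by vector at 23.8%.

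The regions listed in all 4 libraries of the 1-590 set with the best lowest rank by fold were led by CpG-rich starts inside long genes. They were drawn from 442 regions with 1-copy sequence and q of 0.05 or less. Adk encodes adenosine kinase, and its region at chr14:21125898-21126476 in intron 1 of 10 lay 63 bases from another Adk start. Its summit pileup was 41 fragments with 1-590, 24 with 10RA, 31 with 25RA and 19 with vector. Relative to the genome background of each library this was 19.9, 13.9, 16.7 and 20.9 times, so vector was lowest in fragments and highest after scaling. Gm42906 had 48, 21, 28 and 20 fragments in that order of libraries, 51 bases from the start of the lncRNA 1700028E10Rik. Chd2 encodes a chromatin remodeller, and its region in intron 2 of 38 had 41, 15, 17 and 18 fragments, 30 bases from the lncRNA Gm44686. Both windows were among the CpG-dense ones printed above.

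Other leading regions lay at further starts or at none. Gm37240 had 59, 20, 22 and 22 fragments in that order, 173 bases from a start of Fbxw7, a ubiquitin ligase adaptor gene. Itpkb encodes a kinase of soluble inositol phosphates, and its region in intron 2 of 7 had 48, 31, 27 and 31 fragments, 11.2 kb from any other start. Galnt6, a mucin-type glycosyltransferase gene, had 50, 29, 32 and 29 fragments, 10.6 kb from another start. In each of these 6 regions 1-590, which was also the deepest library of its set, had the most fragments. Relative to genome background, 1-590 was highest at Gm42906, Chd2 and Gm37240. Vector was highest at Adk, at Itpkb (23.3 times with 1-590 and 34.2 times with vector) and at Galnt6 (24.3 and 32 times).

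**Figure D4:**
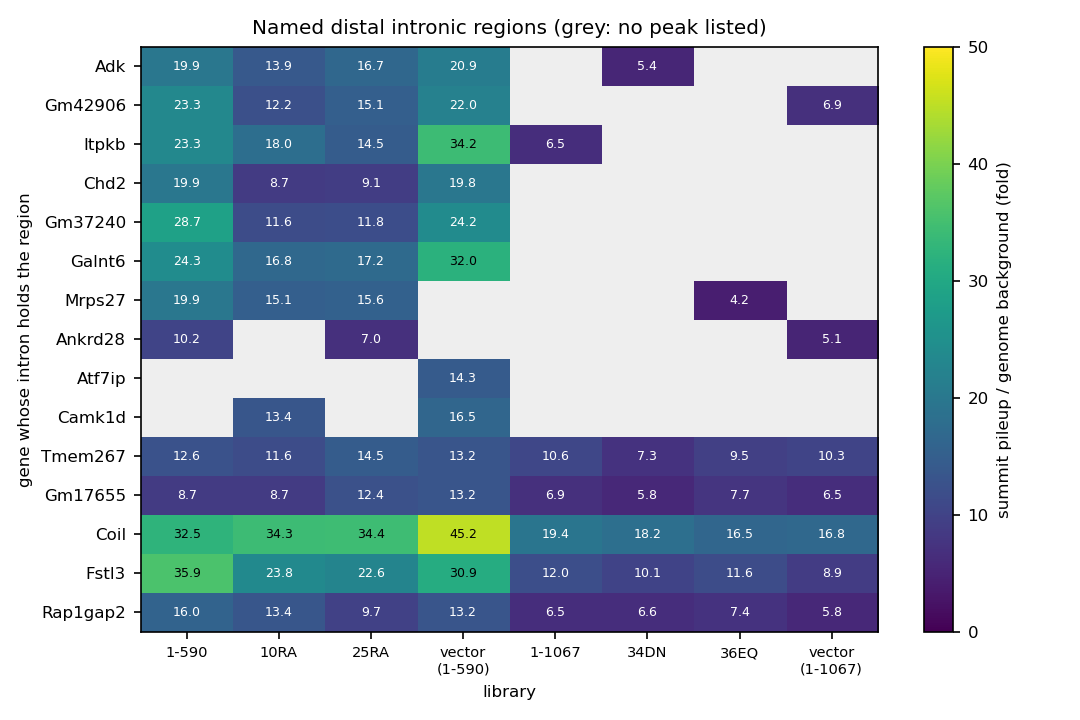
Each cell gives the summit pileup divided by the genome background of its library, as a fold, for 15 named distal intronic regions (rows, by gene) in the 8 libraries (columns), with grey where no peak is listed. The upper 6 rows are listed in all 4 libraries of the 1-590 set, the next 4 in some libraries only, and the lower 5 in all 8 libraries, where Coil reaches 45.2 in the vector of the 1-590 set and 16.5 to 19.4 in the 1-1067 set.

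Regions listed with a construct and not with vector included few of high pileup. Mrps27, a gene of the small mitochondrial ribosomal subunit, had 41 fragments with 1-590, 26 with 10RA and 29 with 25RA in intron 2 of 10 (chr13:99489695-99489996), and no vector peak within 1 kb. It was the strongest such region of each of the 3 constructs, with a fold of 9.30 in 1-590. Ankrd28, a gene for a regulatory subunit of protein phosphatase 6, had 21 fragments with 1-590 and 13 with 25RA, and was not listed with 10RA or with the vector of that set. Ap1s3, a clathrin adaptor subunit gene, had 27 with 1-590 and 13 with 25RA. Tet3, a gene of the enzymes that oxidise 5-methylcytosine, had 18 with 1-590, 15 with 10RA and 26 with 25RA. Gulp1, an engulfment adaptor gene, had 22 with 10RA and 33 with 25RA and was not listed with 1-590 or vector. Cblb, a ubiquitin ligase gene that restrains immune receptor signalling, had 23 with 25RA alone in the set.

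Named vector peaks that a construct lacked had pileups of 11 to 16 fragments with vector. Atf7ip, whose product works with the SETDB1 histone methyltransferase, had 13 fragments with vector, a fold of 6.85, and no peak in the other 7 libraries. Camk1d, a calmodulin-dependent kinase gene, had 23 with 10RA and 15 with vector. Kdm1a, which encodes the histone demethylase LSD1, had 38 fragments with 1-590, 13 with 10RA and 15 with vector, and none listed with 25RA. Pigl, a gene of glycosylphosphatidylinositol anchor synthesis, had 30 with 1-590, 11 with 25RA and 12 with vector, and none listed with 10RA. Absence from a list says only that no peak passed the caller at that depth.

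Only 10 regions of the 1-1067 set met the same rule for all 4 libraries, and 8 are named. Rap1gap2, which encodes a GTPase activator of Rap1, had 14 fragments with 1-1067, 17 with 34DN, 21 with 36EQ and 17 with vector. Fstl3, a follistatin-like gene, had 26, 26, 33 and 26 fragments in that order, 252 bases from another Fstl3 start. Gm17655 had 15, 15, 22 and 19 fragments, Bcar3 had 17, 11, 19 and 16, and Ptdss2, a phosphatidylserine synthase gene, had 25, 17, 18 and 24. The regions in Tmem267, Coil and Sfi1 were listed in all 4 ChIP libraries too. Tmem267 had 23, 19, 27 and 30 fragments, Coil, which encodes coilin of Cajal bodies, 42, 47, 47 and 49, and Sfi1 77, 105, 90 and 120. Vector, the deepest library of the set, lay within the range of the constructs in the first 5 regions and above all 3 constructs in Tmem267, Coil and Sfi1. Relative to genome background, vector was above all 3 constructs at Sfi1 alone and below all 3 at Rap1gap2 and Fstl3. Coil was at 19.4 times with 1-1067, 18.2 with 34DN, 16.5 with 36EQ and 16.8 with vector on that scale.

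Regions of 1-1067 without a vector peak included the first intron of Ets1, a transcription factor gene of lymphoid cells, with 21 fragments in 1-1067 and 21 in 25RA of the other set. Rab20, a small GTPase gene, had 27 with 1-1067 and 16 with 36EQ, and 30, 11 and 15 with 1-590, 10RA and 25RA, and was in neither vector list. With 34DN and not vector came Cyba, a subunit gene of the phagocyte oxidase, at 17 fragments, and with 36EQ and not vector came Hk2, the hexokinase 2 gene, at 20. Vector peaks with no construct peak were led by Rad18, a ubiquitin ligase gene of DNA damage tolerance, at 19 fragments, and Tmcc1 at 20.

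The strongest peaks of several libraries lay on repeated or copied sequence. A peak shared by the overlapping genes Filip1l and Cmss1 had 190 fragments with 1-590, 120 with 10RA, 115 with 25RA and 62 with vector, on sequence with 2 genome copies, and 2 ChIP libraries listed it. Its fold of 28.1 with 1-590 was the highest of any member. Gphn, with 3 copies, had 38 with 1-590, 22 with 10RA, 19 with 25RA and 11 with vector, and 3 ChIP libraries listed it. Adgrd1 had 28 with vector and 17 with 25RA, on sequence with 2 copies, 104 bases from the pseudogene Rps16-ps2. Fragments at such sites could come from another copy, and members on multi-copy sequence numbered 740.

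By gene, 18849 protein-coding genes had distal intronic sequence. A distal intronic peak was listed in 4429 (23.5%) with 1-590, 4381 (23.2%) with 10RA, 4936 (26.2%) with 25RA and 3226 (17.1%) with vector. It was listed in 1792 (9.51%) with 1-1067, 1501 (7.96%) with 34DN, 1722 (9.14%) with 36EQ and 1645 (8.73%) with vector. Counting only peaks with q of 0.05 or less, 4262 (22.6%) had one with 1-590, 4036 (21.4%) with 10RA, 4715 (25.0%) with 25RA and 2723 (14.4%) with vector. By that count 547 (2.9%) had one with 1-1067, 337 (1.79%) with 34DN, 439 (2.33%) with 36EQ and 331 (1.76%) with vector. Long genes had more, as they hold more sequence. Over 5 equal groups of genes by increasing intron length, 2.60%, 7.88%, 18.3%, 35.1% and 53.6% had a peak with 1-590, against 1.56%, 4.43%, 11.7%, 24.4% and 43.4% with vector.

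Between constructs and vector, different genes were listed in each direction. With 1-590 and not vector were 2251 genes (11.9%), and 1048 (5.56%) the reverse. With 10RA and not vector were 2298 (12.2%), and 1143 (6.06%) the reverse. With 25RA and not vector were 2664 (14.1%), and 954 (5.06%) the reverse. With 10RA and not 1-590 were 1700 (9.02%), and 1748 (9.27%) the reverse, whereas 25RA and not 1-590 gave 1964 (10.4%), and 1457 (7.73%) the reverse. Within the 1-1067 set, 1281 (6.8%) had a peak with 1-1067 and not vector and 1134 (6.02%) the reverse, 1052 (5.58%) with 34DN and 1196 (6.35%) the reverse, and 1249 (6.63%) with 36EQ and 1172 (6.22%) the reverse. Set against 1-1067, 34DN gave 1035 (5.49%) and 1326 (7.03%) the reverse, and 36EQ gave 1179 (6.25%) and 1249 (6.63%) the reverse.

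Pooled over gene lengths, genes with a peak at their own promoter had denser intronic peaks. With 1-590 the density was 11.4 per Mb of distal intron in genes with a promoter peak, against 6.08 in genes without, a ratio of 1.88. The ratio was 1.30 with 10RA, 1.30 with 25RA and 1.5 with vector. It was 1.30 with 1-1067, 1.59 with 34DN, 1.57 with 36EQ and 1.34 with the vector of that set. Over 5 groups of genes by intron length, the longest group kept this direction in all 8 libraries, at 10.3 against 4.31 per Mb with 1-590. Each library had the reverse in 1 or 2 shorter groups, as in the shortest with 1-590, at 15.7 against 17.95 per Mb.

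Single genes with the most regions were long. Fgfr2, a fibroblast growth factor receptor gene, had 80 regions over the 1-590 set, with 31 peaks in 1-590, 25 in 10RA, 33 in 25RA and 17 in vector. Its annotation is unusually wide, with 2651 kb of distal intron. Pde4d, a cyclic AMP phosphodiesterase gene, had 72 regions, with 33, 16, 36 and 17 peaks in that order. Gse1, a component gene of LSD1 corepressor complexes, had 43 regions, with 23, 14, 15 and 8 peaks. Frmd4a had 35 regions with 6, 14, 18 and 9 peaks, the 1-590 count being the lowest. Per 100 kb of distal intron, Unc45b had 29.2 regions, Peds1 26.7, Rara 26.6, Timmdc1 26.5 and Lhx2 25.9. Rara, the retinoic acid receptor gene that acts in myeloid differentiation, had 8 peaks with 1-590, 1 with 10RA, 1 with 25RA and 5 with vector.

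Regulators of blood stem cells were densely marked inside their introns in the 1-590 set. In 29 genes of HSPC and leukaemia regulators the density was 20.9 peaks per Mb with 1-590, 17.2 with 10RA, 19 with 25RA and 13 with vector. Over all genes it was 9.15, 8.27, 10.4 and 5.27. A peak was listed in 21, 21, 24 and 22 of the 29 genes. These are 72.4%, 72.4%, 82.8% and 75.9% of the list, against the 17.1% to 26.2% of all genes above. The shares were not matched for intron length. In the longest of the 5 length groups, 53.6%, 54.4%, 60.8% and 43.4% of genes had a peak with 1-590, 10RA, 25RA and vector. Runx1, a master regulator of definitive haematopoiesis, had 10 peaks with 1-590, 10 with 10RA, 8 with 25RA and 5 with vector. Erg, an ETS factor gene of stem cell maintenance, had 7, 8, 10 and 6. Meis1, a homeobox cofactor gene, had 4, 5 and 9 with the constructs and 8 with vector, and Mecom, which encodes EVI1, had 9, 8, 6 and 4. Msi2, an RNA-binding regulator gene, had 9, 4, 5 and 2. Constructs lay on both sides of vector at Meis1, and all above it at Runx1, Erg, Mecom and Msi2. Vector was the shallowest library of the set. Counted over all genes it had 4939 such peaks, against 8576, 7747 and 9773 with 1-590, 10RA and 25RA. The part of depth in counts of single genes was not tested. Cd34, Gata2 and Lyl1 had no distal intronic peak in any library. The same list in the 1-1067 set had 2.56 peaks per Mb with 1-1067, 1.86 with 34DN, 3.25 with 36EQ and 3.48 with vector, against 2.31, 1.89, 2.22 and 2.17 over all genes.

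Genes mutated alongside ASXL1 in myeloid malignancy had 19.8 peaks per Mb with 1-590, 17.2 with 10RA, 17.8 with 25RA and 10.1 with vector. A peak was listed in 8, 10, 10 and 10 of 19 genes. These are 42.1%, 52.6%, 52.6% and 52.6% of the list, beside 23.5%, 23.2%, 26.2% and 17.1% of all genes, not matched for intron length. Bcor, a gene of a variant PRC1 complex, had 9, 5, 4 and 1 peaks in that order, and Cux1, a transcription factor gene on a chromosome arm lost in leukaemia, had 8, 4, 8 and 3. Nf1, which encodes an inhibitor of RAS, had 4, 1, 3 and 2, and Dnmt3a, a DNA methyltransferase gene, had 3, 5, 2 and 2. Tet2 had 1, 0, 2 and 1. All 3 constructs were above vector at Bcor and Cux1 and not at Nf1, Dnmt3a or Tet2. These counts too were not matched for depth, and the constructs listed more peaks than vector over all genes. This list and the previous one share Runx1 and other members.

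Lists of mature blood lineages ranged in distal intron from 0.281 Mb for myeloid genes to 2.56 Mb for lymphoid genes. Cytokine and JAK-STAT signalling genes had 30.8 peaks per Mb with 1-590, 16.1 with 10RA, 21.4 with 25RA and 17.4 with vector. A peak was listed in 12, 7, 9 and 7 of 24 genes. These are 50%, 29.2%, 37.5% and 29.2% of the list, beside 23.5%, 23.2%, 26.2% and 17.1% of all genes. Il6ra, the interleukin 6 receptor gene, had 3, 3, 4 and 3 peaks, and Jak1 had 4, 2, 2 and 2. Myeloid genes had 8, 2, 8 and 4 peaks, or 28.5, 7.12, 28.5 and 14.2 per Mb, in 7, 2, 6 and 4 of 23 genes. These are 30.4%, 8.70%, 26.1% and 17.4% of the list, close to the 26.2% and 17.1% of all genes with 25RA and vector. Erythroid and megakaryocyte genes had 18.6, 17.7, 17.7 and 10.6 per Mb, among them Zfpm1, the gene of the GATA1 cofactor FOG1, with 6, 2, 2 and 1 peaks, and Angpt1, an angiopoietin gene, had 8, 1, 3 and 5. Lymphoid genes had 12.9, 11.3, 15.2 and 6.64 per Mb, with Bach2, a repressor gene of B cells, at 9, 7, 6 and 4 peaks, and Pax5, the B cell identity factor gene, at 5, 5, 6 and 3. Mast cell and basophil genes had 22.8, 17.1, 17.1 and 17.1 per Mb, with 6, 3, 6 and 3 peaks in Mitf, a factor gene of mast cells.

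In the 1-590 set the density of chromatin and developmental genes was nearer to that of all genes, apart from the BAP1 complex genes with 10RA. Polycomb subunit genes had 12.3, 9.19, 12.6 and 5.36 peaks per Mb with 1-590, 10RA, 25RA and vector, in 16, 13, 13 and 10 of 32 genes. These are 50%, 40.6%, 40.6% and 31.25% of the list, beside 23.5%, 23.2%, 26.2% and 17.1% of all genes, not matched for intron length. Genes of the BAP1 complex and its partners had 9 peaks with 1-590, 0 with 10RA, 11 with 25RA and 4 with vector, in 5, 0, 6 and 4 of 16 genes. These are 31.25%, 0%, 37.5% and 25% of the list, beside 23.5%, 23.2%, 26.2% and 17.1% of all genes. Other chromatin regulators had 10.5, 10.5, 13.5 and 7.53 per Mb, with Arid1b, a BAF complex gene, at 10, 8, 8 and 4 peaks and Chd7, a remodeller gene, at 4, 5, 5 and 5. In the 1-1067 set these regulators had 3.65 per Mb with 1-1067, 2.97 with 34DN, 3.42 with 36EQ and 4.11 with vector, against 2.31, 1.89, 2.22 and 2.17 over all genes. Developmental regulators of other lineages had 11.4, 9.47, 13.2 and 5.39 per Mb with 1-590, 10RA, 25RA and vector. A peak was listed in 25, 27, 25 and 18 of 53 genes. These are 47.2%, 50.9%, 47.2% and 34.0% of the list, beside the all-gene shares given above. In this list Foxp1, a forkhead factor gene, had 11, 9, 14 and 4 peaks and Zfhx3, a homeodomain factor gene, had 8, 7, 10 and 3.

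Very long neuronal genes lay below all genes in peaks per Mb in each of the 8 libraries. Over 63.7 Mb of distal intron they had 1.13 peaks per Mb with 1-590, 0.722 with 10RA, 1.08 with 25RA and 0.581 with vector. They had 0.157 with 1-1067, 0.408 with 34DN, 0.424 with 36EQ and 0.534 with vector, as 10, 26, 27 and 34 peaks. The 1-1067 library was also the shallowest of its set, and the part of depth in this was not tested. By share of genes with a peak the list was above all genes, not matched for intron length. With 1-590, 10RA, 25RA and vector it was 32.7%, 36.5%, 48.1% and 38.5% of 52 genes, against 23.5%, 23.2%, 26.2% and 17.1%. With 1-1067, 34DN, 36EQ and their vector it was 13.5%, 34.6%, 34.6% and 36.5%, against 9.51%, 7.96%, 9.14% and 8.73%. Fhit, a fragile-site gene, had 9, 5, 11 and 1 peaks with 1-590, 10RA, 25RA and vector. Imprinted genes with an intragenic germline methylated region had 18, 14, 23.4 and 9.36 per Mb. Of these Kcnq1, a potassium channel gene, had 7, 3, 6 and 6 peaks, and Grb10, a growth factor receptor adaptor gene, had 1, 3, 8 and 1. Ribosomal protein genes, whose introns are short, had 7, 2, 4 and 1 peaks in 4, 2, 4 and 1 of 25 genes. These are 16%, 8%, 16% and 4% of the list, below the 23.5%, 23.2%, 26.2% and 17.1% of all genes, not matched for intron length. With 0.148 Mb of distal intron this gave 47.3 per Mb with 1-590, 13.5 with 10RA, 27.03 with 25RA and 6.76 with vector. Over all genes it was 9.15, 8.27, 10.4 and 5.27, and the list values rest on few peaks. In the 1-1067 set, 1-1067 had 1 peak and 34DN, 36EQ and vector none, over too little sequence to read an absence.

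**Figure D5:**
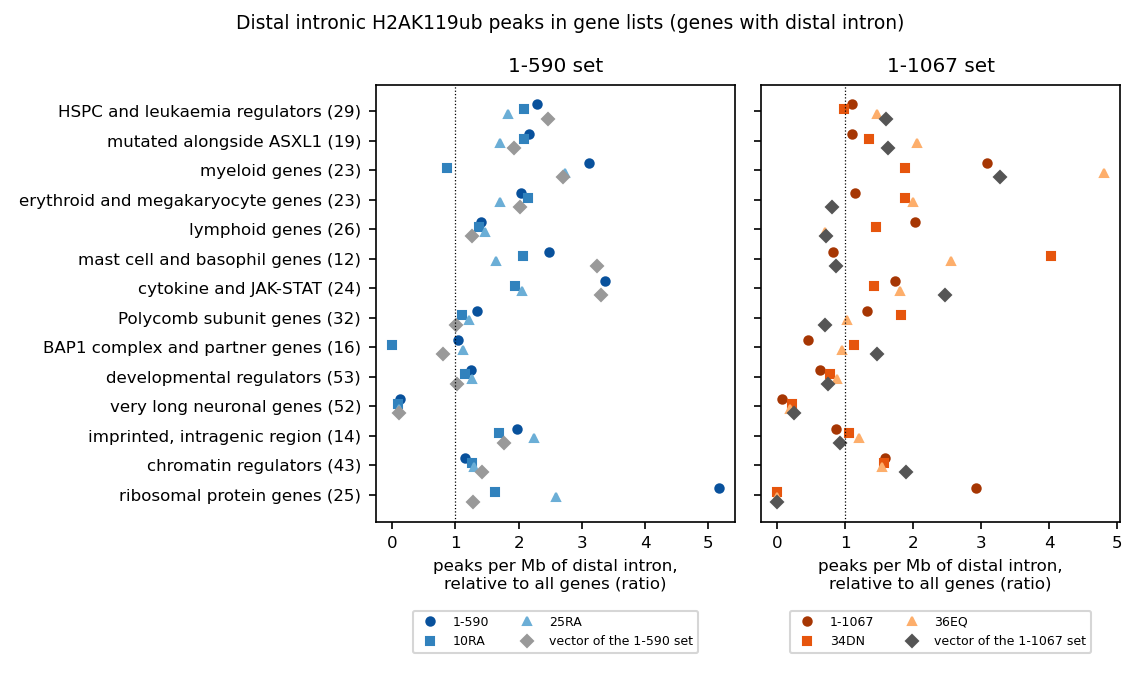
For each gene list (number of genes with distal intron in brackets), points give the peaks per Mb of distal intron in 1 library divided by the value over all genes in that library, with the 1-590 set on the left, the 1-1067 set on the right and a dotted line at 1. In the 1-590 set HSPC and leukaemia regulators lie above 1 in all 4 libraries and very long neuronal genes below 1, and very long neuronal genes lie below 1 in the 1-1067 set as well.

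Peaks were unevenly spread over chromosomes, a comparison chosen after the values were seen. Chromosome 11 had the highest density of the autosomes in all 8 libraries, with 13.5 members per Mb of distal intron in 1-590, 12.4 in 10RA, 14 in 25RA and 7.79 in vector. Chromosome X was below the autosomes, with 7.03 per Mb against 9.28 in 1-590 (ratio 0.758), 7.03 against 8.36 in 10RA (0.841), 6.91 against 10.6 in 25RA (0.653) and 3.04 against 5.37 in vector (0.567). In the 1-1067 set the ratio was 0.276 with 1-1067, from 27 peaks on X, 0.617 with 34DN, 0.479 with 36EQ and 0.667 with vector. Dmd, the dystrophin gene on X, had 21 peaks with 1-590, 8 with 10RA, 9 with 25RA and 1 with vector. The sex of the mice is not given, so copies of X per cell and mark per copy cannot be told apart. No member lay on Y.

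Short motifs of blood transcription factors were searched on both strands within 50 bases of summits with q of 0.05 or less and 1-copy sequence, and in windows 1 kb to each side. GAGGAAG, the core of PU.1 sites, was found at 6.21% of summits with 1-590, 6.23% with 10RA, 6.32% with 25RA and 6.44% with vector, against 3.63%, 3.55%, 3.71% and 3.85% of flanks. Promoter peaks had it at 4.45% to 4.81%. TGAGTCA, bound by AP-1, was found at 2.98%, 2.37%, 2.53% and 3.13% of summits, against 1.65%, 1.66%, 1.83% and 1.79% of flanks. The E-box CACGTG was found at 2.48%, 2.12%, 2.17% and 2.11%, against 1.45%, 1.35%, 1.36% and 1.46% of flanks. These 3 motifs were thus more frequent at summits than beside them in all 4 libraries of the 1-590 set, at close to the same level with each construct and with vector. GC content also differed between summits and flanks there, as given above, and its part in the motif shares was not tested.

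Other motifs were nearer to their flanks. The RUNX motif TGTGGTT was found at 2.92%, 2.12%, 2.37% and 3.05% of summits, against 2.56%, 2.59%, 2.73% and 2.69% of flanks, above in 1-590 and vector and below in 10RA and 25RA. The GATA motif AGATAAG was found at 0.967% to 1.31% of summits and 1.26% to 1.46% of flanks. CGGAAGT, an ETS motif common at promoters, was found at 0.280% to 0.428% of summits and at 2.46% to 2.74% of promoter peaks. The CTCF core AGGGGGC was found at 1.45% to 1.79% of summits and 1.23% to 1.39% of flanks, and GCGCATG of NRF1 at 0.354% to 0.588% and 0.309% to 0.414%. Of the 8 windows printed above the Ets1 window alone held a listed motif, the CTCF core on its minus strand. A match describes letters, not binding.

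Few members met a BAP1 or ASXL1 ChIP peak. On 1-copy sequence, BAP1 peaks of 1-590 met 11 of 8223 members of 1-590 (0.134%), 9 of 7394 of 10RA, 9 of 9277 of 25RA and 4 of 4679 of vector. BAP1 peaks of 10RA met 0.328% to 0.392% of members of these 4 lists. ASXL1 peaks of 1-590 met 0.473% to 0.534%, and ASXL1 peaks of 10RA met 0.149% to 0.235%. Low overlap was not particular to distal introns. Of 1-590 promoter peaks, BAP1 peaks of 1-590 and 10RA met 0.0405% and 0.0810%, and ASXL1 peaks of 1-590 and 10RA met 0.162% and 0.0648%. Of 1-590 peaks outside genes these lists met 0.143%, 0.494%, 0.702% and 0.241%, in the same order. The vector members, from cells without an ASXL1 virus, were met at rates within or near the range of the construct members in each case.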

How the data were processed

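Peak lists of 8 H2AK119ub CUT&RUN libraries (2 sets of 4, 1 library per condition) and 4 ChIP-seq libraries were used. The submitters' processing notes name MACS3 3.0.3, Bowtie2 2.5.4, fastp 0.24.0, Picard and SAMtools, and the mm39 build. E. coli spike-in reads served for normalization of the CUT&RUN libraries, per the labels. Whether a control library was used, or fragments were subsampled before peak calling, is not given in the sources used here. Sequencing depth and such subsampling thus cannot be told apart in the background read as depth. In the deposited lists the fold is a ratio of summit pileup to local background, each plus 1, made by the authors' caller. The deposited -log10 p and -log10 q are the caller's values for each summit within its library, and the deposited score is derived from them. They served to order and select peaks inside each list, and the share of a list at q of 0.05 or less also moves with depth. Whole fragment pileups and backgrounds were recovered from fold and p for all peaks, with a tolerance of 0.002 in -log10 p. Depth matching thinned these binomially to the lowest background of a set, at p of 0.001. This matches 1 statistic, and peaks that were not listed could not be thinned.

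Classes came from GENCODE vM39 on GRCm39, with coordinates counted from 1. They were promoter (summit within 2 kb of a canonical coding TSS), distal exon, distal intron, and outside protein-coding genes. Windows of 100 bases to each side of the summit gave GC and the CpG ratio. Sequence was called multi-copy where its 32-base words had a median of more than 1 genome copy. This replaced a planned soft-masked share, since the genome used here carries no masking. Peaks overlapping by 1 base were counted as shared, and positions of summits were set against all distal intronic bases. No differences between conditions were tested, because each has 1 library. Shares carry Wilson and Newcombe 95% intervals. Features were tested between peak classes by an exact paired sign-flip permutation test over the 8 libraries, adjusted over 13 tests. The p-values measure the spread between these libraries, which differ in construct and batch. For the share listed again, libraries of a set enter each other's values, so the test treats coupled values as independent.

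Regions were named by these criteria: for each pair, in both directions, the strongest q of 0.05, 1-copy peaks with no peak of the other library within 1 kb; the regions in all 4 libraries of a set with the best lowest rank; the 3 strongest peaks per library; and the genes with the most regions. The 14 gene lists (414 symbols, 378 with distal intronic sequence) were written from general knowledge. The members, lists and motifs were chosen with earlier results of these data known. Some regions under the rule are not described. Python 3.11.15, NumPy 2.4.6, SciPy 1.17.1, pandas 2.3.3, pysam 0.24.0, numba 0.67.0 and matplotlib 3.10.9 were used. Pileup recovery, overlap calls, thinning and the exact test were tested on simulated data, and classification and copy counts were not.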

Additional observations from a re-analysis of the deposited data

Results flagged for a closer look

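Constructs lay on opposite sides of vector in the 2 sets, which is why these 6 differences in the distal intronic share of peaks are listed here. In the 1-590 set the share was higher than in vector by 1.91 percentage points with 1-590, 2.96 with 10RA and 4.18 with 25RA. In the 1-1067 set the difference from vector was -1.47 points with 1-1067, -2.15 with 34DN and -1.36 with 36EQ. The difference between the sets was not tested, since each condition has 1 library and the 3 comparisons of a set share 1 vector library. The vector was the shallowest library of the 1-590 set, at 0.908 fragments per base, and the deepest of the 1-1067 set, at 2.92. After thinning the listed peaks to a matched lowest background the differences were -1.65, 0.805 and 1.53 points in the 1-590 set and -0.370, -2.04 and -1.99 points in the 1-1067 set.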

How the results depend on the processing

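No paired analysis was possible because each condition has 1 library, so conditions share no replicates; the sign-flip test paired peak classes within each library. Of the alternatives computed, 279 kept the direction and the side of the threshold or moved by less than the counting interval, 28 values moved by more, 5 reversed, 35 no longer passed and 7 newly passed. The distal intronic share of 1-590 minus vector was 1.91 points as reported, 3.12 at q of 0.05 or less, -3.65 with equal list lengths and -1.65 at matched depth. That of 10RA minus vector was 0.273 with equal lengths and 0.805 at matched depth. That of 25RA minus vector was 5.33 at q of 0.05, -0.457 with equal lengths and 1.53 at matched depth. Relative to 1-590, 10RA gave 3.93 and 2.45 and 25RA gave 3.20 and 3.17 with equal lengths and at matched depth. At q of 0.05 or less the difference was 1.54 for 1-1067 minus vector, -3.91 for 34DN minus 1-1067 and -4.60 for 36EQ minus 1-1067, and at matched depth the last was -1.62. With equal lengths 34DN minus 1-1067 was 0.339 and 36EQ minus 1-1067 was -0.339. The difference from vector thus changed sign for 1-590 with equal lengths and at matched depth and for 25RA with equal lengths, and for 1-1067 at q of 0.05 or less.

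With an overlap of 0.5 of the shorter peak, vector met 15.1% of members of 1-590, 12% of 10RA, 12.3% of 25RA, 2.63% of 34DN and 2.78% of 36EQ, and 1-590 met 21.0% of 10RA and 20.3% of 25RA. With summits within 500 bases, vector met 14.6% of 10RA, 14.5% of 25RA and 4.81% of 1-1067. Genes listed in 1 of 2 libraries numbered, at q of 0.05 or less and as reported, 742 and 2415 for 1-1067 and vector, 574 and 2248 for 34DN and vector, 674 and 2421 for 36EQ and vector, 762 and 2361 for 34DN and 1-1067, and 830 and 2428 for 36EQ and 1-1067.

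With 1 set of 4 libraries the exact test cannot go below 0.125, so no feature difference can pass. Without the 1-590 set and without the 1-1067 set, distal intronic minus promoter values were -33.8 and -122 bases of width, -24.4 and -7.71 points at q of 0.05, -0.468 and -0.566 of the CpG ratio, -10.3 and -11.9 points of GC, 1.37 and 1.01 points multi-copy, and -39.0 and -46.7 points listed again. Distal intronic minus outside values were -3.00 and -3.75 bases, -4.26 and -2.29 points multi-copy, -2.35 and -2.29 points listed again, -3.16 and -6.84 points near another start, and 1.24 and 0.187 points of GC. With equal list lengths the share at q of 0.05 against promoters was -13.5 points and no longer passed.

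Against peaks outside genes, 3 features depended on settings. The GC difference did not pass at q of 0.05 (0.808), beyond 5 kb (0.435), with all transcript starts (0.0933), with the whole peak in the intron (0.435), with equal lengths (0.498), in windows of 50 bases to each side (0.743) or without 10RA, 34DN, 36EQ, 1-1067 or either vector, and leaving out 1 library gave 0.462 to 0.853. The CpG ratio difference was -0.00262 with all transcript starts and -0.000156 with the whole peak in the intron, and it passed with canonical exons only (0.0131), in windows of 250 bases to each side (0.00868) and without 1-590 (0.00934; range without 1 library 0.00615 to 0.00934). The q share difference passed beyond 5 kb (-1.26), with all transcript starts (-1.90), with the whole peak (-1.24) and without 1-1067 (-0.946; range -0.946 to -0.391). The causes were not tested. Few listed fragments per peak limit weak calls, above all in the 1-1067 set.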
